A study of Homo sapiens with 6 samples.

Results

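The genes described are 10 that encode PI3 kinase subunits and their direct regulators, taken from a fixed list of symbols and matched in the table of gene counts, out of 26485 symbols in all. They are the class IA catalytic genes PIK3CA, PIK3CB and PIK3CD, the class IA regulatory genes PIK3R1, PIK3R2 and PIK3R3, the class II genes PIK3C2A and PIK3C2B, the inhibitor gene PIK3IP1 and the adaptor gene PIK3AP1. RNA was sequenced from PC-9, a human lung adenocarcinoma line that carries mutant EGFR. The shIFITM3 group stably expressed a short hairpin RNA against IFITM3, and the shControl group a control construct, with 3 biological replicates in each group and 6 samples in all. The extraction protocol speaks of control shRNAs and the count columns of ShEV, so what the control construct carried is not settled by the labels. No drug treatment is named for either group. The labels give neither the number and sequence of the hairpins nor whether each population came from 1 clone, so an effect of IFITM3 loss and an effect of a single hairpin cannot be told apart.

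Class IA PI3 kinases are heterodimers. A regulatory subunit holds a catalytic subunit at activated receptor tyrosine kinases and their adaptors, where the catalytic subunit phosphorylates the membrane lipid PIP2 to PIP3. PIP3 recruits AKT and other proteins with lipid-binding domains, and in lung cancer with mutant EGFR this pathway carries much of the survival signal of the receptor. Class II enzymes act alone on other phosphoinositides, mainly during endocytosis and in endosomes. IFITM3, an interferon-induced membrane protein, is known in B cells to help gather PIP3 and so to amplify PI3 kinase signalling. The study's title places IFITM3 beside the MET receptor and the AKT pathway in resistance to the EGFR inhibitor osimertinib, and the comparison here asks how transcripts of the kinase itself differed when IFITM3 was depleted.

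The promoters of the genes with the largest rises and the largest fall among the 10 are shown first, as the 250 bases before a RefSeq start site on GRCh38.p14, 5′ to 3′ on the gene's strand. Capitals mark the KLF box, CACCC or GGGTG on either strand, the only motif of those searched that occurs in any of these windows. The RefSeq promoter table holds 3 starts for PIK3CD, of which its most upstream is shown, downstream of the start of the gene record at 9627258.
PIK3IP1, chr22:31292535-31292784, minus strand: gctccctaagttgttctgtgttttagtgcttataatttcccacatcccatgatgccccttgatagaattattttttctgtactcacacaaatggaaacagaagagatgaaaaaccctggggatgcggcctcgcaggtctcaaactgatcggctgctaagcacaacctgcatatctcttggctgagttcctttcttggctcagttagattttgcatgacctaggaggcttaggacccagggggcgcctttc
PIK3CD, chr1:9651481-9651730, plus strand: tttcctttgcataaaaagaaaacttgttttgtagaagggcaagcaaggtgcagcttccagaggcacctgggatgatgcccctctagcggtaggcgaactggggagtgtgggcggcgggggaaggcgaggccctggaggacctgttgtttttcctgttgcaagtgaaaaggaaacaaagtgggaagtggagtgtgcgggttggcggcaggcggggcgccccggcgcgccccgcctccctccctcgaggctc
PIK3C2B, chr1:204494806-204495055, minus strand: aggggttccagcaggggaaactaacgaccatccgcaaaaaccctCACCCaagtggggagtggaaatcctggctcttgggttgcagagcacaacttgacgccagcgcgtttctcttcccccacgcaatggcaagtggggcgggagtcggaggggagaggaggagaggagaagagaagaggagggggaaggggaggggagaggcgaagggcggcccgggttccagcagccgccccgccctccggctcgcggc
All 10 genes matched the RefSeq table, with 22 such windows. Some genes had several windows, which can overlap each other and the gene's own exons, by up to 241 of 250 bases for PIK3R3. The windows are therefore not 22 separate promoters. The KLF box occurred in 12 of the 22 windows, against 54.7% of 35116 windows of the same length before all annotated starts. A FOXO core, TGTTTAC or GTAAACA, occurred in 1 of them, against 2.98% of all windows. It was the PIK3CA window chr3:179148107-179148356, which overlaps the gene record itself and has 106 of its 250 bases in PIK3CA exons. A TEAD site, GGAATG or CATTCC, occurred in 2 windows (PIK3CD at the most downstream of its 3 starts and PIK3C2A) against 11.9%. An E-box, CACGTG on both strands, occurred in 1 window (PIK3AP1) against 6.34%. The PIK3IP1 window shown held none of these 4 motifs, and it was 46.8% G and C, against 65.2% for PIK3C2B. The PIK3CD window shown held none of the 4 either. Its other windows, chr1:9689294-9689543 and chr1:9691217-9691466, each held a KLF box. A match is a description of letters and not a bound site.

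Total counts per library were 21965506 to 23852371 in shIFITM3 and 21342028 to 77228760 in shControl, where replicate 2 was the deepest. Levels are CPM, counts scaled to a common library size with TMM factors. The hairpin target IFITM3 averaged 10.99 ± 1.65 CPM in shIFITM3 and 60.1 ± 2.91 CPM in shControl (SD, n = 3 each), so the levels go with the labels. Differences between groups were tested with edgeR's quasi-likelihood test, adjusted by Benjamini-Hochberg over 14018 tested genes, and a gene is said to rise or fall where its adjusted p was under 0.05. Of all tested genes 56.1% passed this threshold, 27.7% higher and 28.4% lower in shIFITM3. The p-values measure the spread between these samples, and in bulk RNA fewer cells of a kind and less RNA per cell cannot be told apart.

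All 10 genes were abundant enough to be tested. In shIFITM3 5 of the 10 rose (PIK3IP1, PIK3CD, PIK3CA, PIK3C2A and PIK3R2), beside 27.7% of all tested genes, and 3 fell (PIK3C2B, PIK3R1 and PIK3R3), beside 28.4%. PIK3CB and PIK3AP1 did not pass. The groups' CPM ranges did not overlap for the 8 genes that passed, where 60.9% of all tested genes had ranges that did not overlap. Only PIK3IP1 and PIK3CD rose at least 2-fold, as did 4.83% of all tested genes, and 0 of the 10 fell at least 2-fold, as did 1.69%. That 0 was also found at an unadjusted p under 0.05 and with DESeq2 and limma-voom, and PIK3C2B passed 2-fold, with log2 fold changes of -1.02 and -1.05, without shIFITM3 replicate 3 and after a correction for GC content and transcript length. The median log2 fold change of the 10 was 0.20, beside -6.33e-05 over all tested genes. The 10 were chosen by name, with earlier results of these data known. They are too few for these shares to set them apart from the background.

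**Figure D1:**
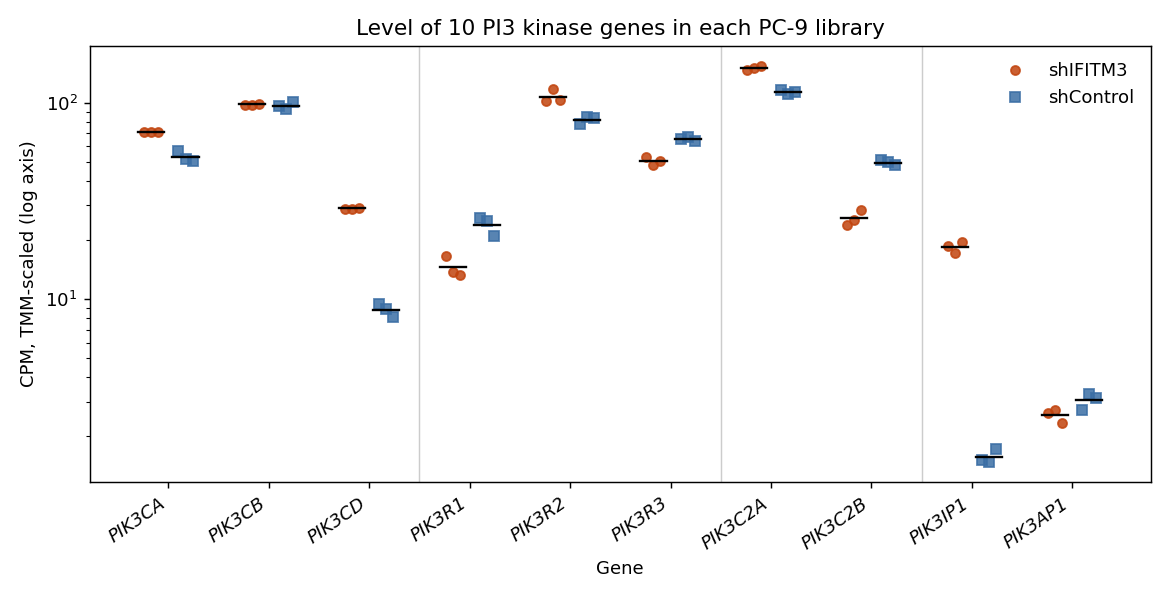
Level of each of the 10 genes in CPM (log axis) in the 3 shIFITM3 libraries (circles) and the 3 shControl libraries (squares), with a black line at each group's mean. PIK3IP1 sits between 17.2 and 19.6 CPM in shIFITM3 and between 1.48 and 1.72 CPM in shControl, and PIK3CB overlaps between the groups.

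PIK3CD encodes the delta catalytic subunit, which is best known from leukocytes. It was at 28.9, 28.8 and 29.3 CPM in shIFITM3 replicates 1, 2 and 3, against 9.47, 8.92 and 8.10 CPM in shControl replicates 1, 2 and 3. Every shIFITM3 library lay above every shControl library, and the shIFITM3 libraries lay within 1 CPM of each other. The log2 fold change was 1.72 (SE 0.0858), or 3.29-fold (edgeR adjusted p = 2.69e-14), and 1.89% of all tested genes had a larger absolute change. The gene lies on chromosome 1 at 9627258 to 9729114 (GRCh38). Its exons in GENCODE 29 share 89 bases with CLSTN1 on the opposite strand and none with PIK3CD-AS1, which had no count in any library, or with PIK3CD-AS2, at 0.373 ± 0.169 CPM in shIFITM3 and 0.380 ± 0.106 CPM in shControl.

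PIK3CA, on chromosome 3 at 179148126 to 179240093, encodes the alpha catalytic subunit, which receptor tyrosine kinases mainly use and which is often mutated in carcinomas. Its level was 71.0, 70.8 and 70.8 CPM in shIFITM3, against 56.6, 51.8 and 50.5 CPM in shControl. The ranges did not overlap, and PIK3CA rose 1.34-fold, by 0.42 on the log2 scale (SE 0.0503, edgeR adjusted p = 1.31e-07). Over 35.8% of its annotated exon length PIK3CA overlaps KCNMB3 on the opposite strand, and KCNMB3 averaged 6.63 ± 1.31 CPM in shIFITM3 and 5.41 ± 0.431 CPM in shControl (edgeR adjusted p = 0.0799).

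PIK3CB, on chromosome 3 at 138652698 to 138834928, encodes the beta catalytic subunit, which also takes input from G protein-coupled receptors. It had 98.0, 97.6 and 99.0 CPM in shIFITM3, against 96.7, 92.8 and 100.5 CPM in shControl. The groups overlapped. Its log2 fold change of 0.03 had a 95% interval of -0.06 to 0.11 (edgeR adjusted p = 0.636), or 0.957 to 1.08 times the shControl level.

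The 3 regulatory genes moved apart. PIK3R1, on chromosome 5 at 68215756 to 68301821, encodes the alpha regulatory subunit, which both stabilises and restrains the catalytic subunit. It was at 16.6, 13.8 and 13.3 CPM in shIFITM3, against 26.0, 24.9 and 21.02 CPM in shControl. All shIFITM3 values were lower than all shControl values. It fell to 0.606 of the shControl level, by 0.72 on the log2 scale (SE 0.0962, edgeR adjusted p = 7.93e-07). PIK3R3, on chromosome 1 at 46040140 to 46174901, encodes the shorter gamma regulatory subunit. Its values were 52.8, 48.1 and 50.6 CPM in shIFITM3, against 65.2, 67.3 and 63.7 CPM in shControl, again with no overlap. PIK3R3 fell by 0.38 on the log2 scale (SE 0.0508, edgeR adjusted p = 9.64e-07).

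PIK3R2, on chromosome 19 at 18153163 to 18170532, encodes the beta regulatory subunit. It was at 102, 117 and 103 CPM in shIFITM3, against 77.8, 84.2 and 84.1 CPM in shControl. The ranges did not overlap, and shIFITM3 replicate 2 stood highest. PIK3R2 rose by 0.38 on the log2 scale (SE 0.0512, edgeR adjusted p = 7.92e-07), and by 0.24 after the correction for GC content and transcript length (adjusted p = 0.000337). A read-through gene that joins IFI30 to PIK3R2 shares 87.2% of the PIK3R2 exon length on the same strand and has no row of its own in the table. IFI30 itself fell, with 20.8 ± 1.72 CPM in shIFITM3 and 32.7 ± 2.30 CPM in shControl. For PIK3R3 a similar read-through gene shares 17.4% of the exon length.

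**Figure D2:**
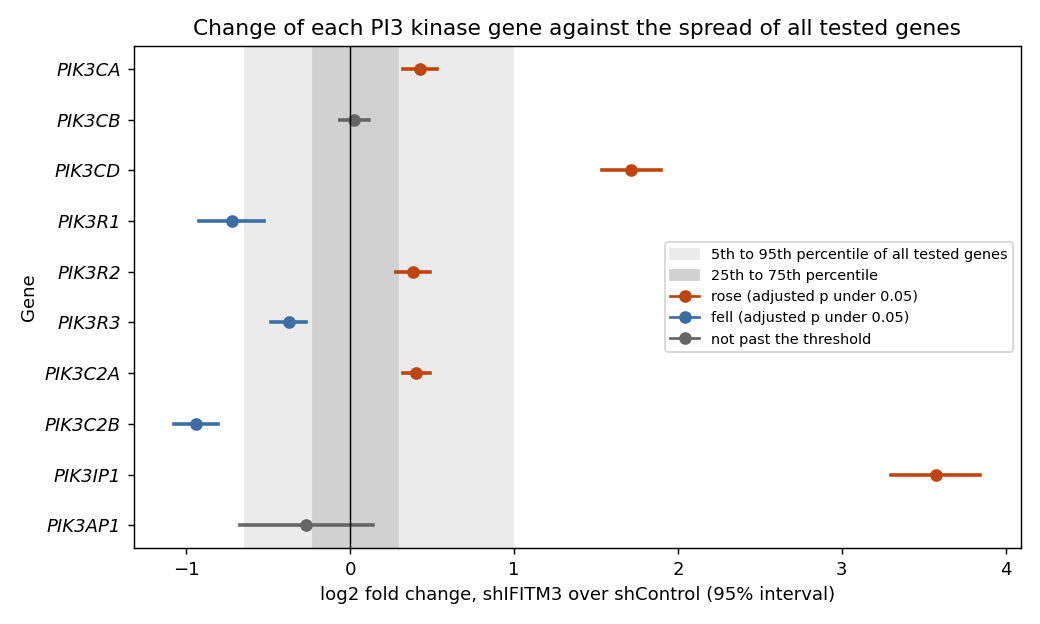
Log2 fold change, shIFITM3 over shControl, of each of the 10 genes (points) with its 95% interval (lines) from the edgeR fit. The dark and light bands hold the middle of all tested genes, from the 25th to the 75th percentile (-0.23 to 0.29) and from the 5th to the 95th (-0.64 to 0.995). PIK3IP1 and PIK3CD lie above the light band, and PIK3C2B and PIK3R1 below it.

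These changes altered the make-up of the class IA transcript pools within each library, which does not depend on how libraries are scaled. Counts were divided by the exon length of each gene in GENCODE 29, and each gene's share of the 3 catalytic or the 3 regulatory genes was taken. PIK3CD made up 18.6%, 18.6% and 18.7% of catalytic transcripts in shIFITM3, against 7.56%, 7.54% and 6.59% in shControl. PIK3CB made up 50.96 ± 0.113% in shIFITM3 and 63.9 ± 1.91% in shControl. The PIK3CA share differed least, with 30.4 ± 0.182% in shIFITM3 and 28.9 ± 1.38% in shControl. So the delta share was larger and the beta share smaller in every shIFITM3 library than in every shControl library. The level of PIK3CB itself was near equal, at 12.5 CPM per kilobase of exon in shIFITM3 and 12.3 in shControl. Its smaller share goes with the higher PIK3CD and PIK3CA in the same sum.

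Among regulatory transcripts the beta form was the most abundant per exon length in both groups. PIK3R2 made up 72.2%, 76.9% and 73.9% in shIFITM3, against 60.5%, 62.0% and 63.8% in shControl. PIK3R3 held 22.9%, 19.3% and 22.1% in shIFITM3, against 30.98%, 30.3% and 29.5% in shControl. PIK3R1 held 4.25 ± 0.618% in shIFITM3 and 7.63 ± 0.8995% in shControl. Divided by protein length instead, PIK3R2 stood above PIK3R3 in shIFITM3 (53.2 ± 3.16% and 39.6 ± 2.51%) but below it in shControl (39.2 ± 1.63% and 49.3 ± 0.448%), so the leading gene in shControl depends on the length used. For none of the 6 shares per exon length did the groups overlap. Each gave p = 0.1 in a two-sided exact permutation test, the smallest that 3 samples against 3 allow. For PIK3CA the gap was narrow, with 30.185% as the lowest shIFITM3 share and 30.145% as the highest shControl share. The shares of a pool add to a fixed total, so the 6 are not separate results. In CPM, 60.9% of all tested genes had ranges that did not overlap.

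**Figure D3:**
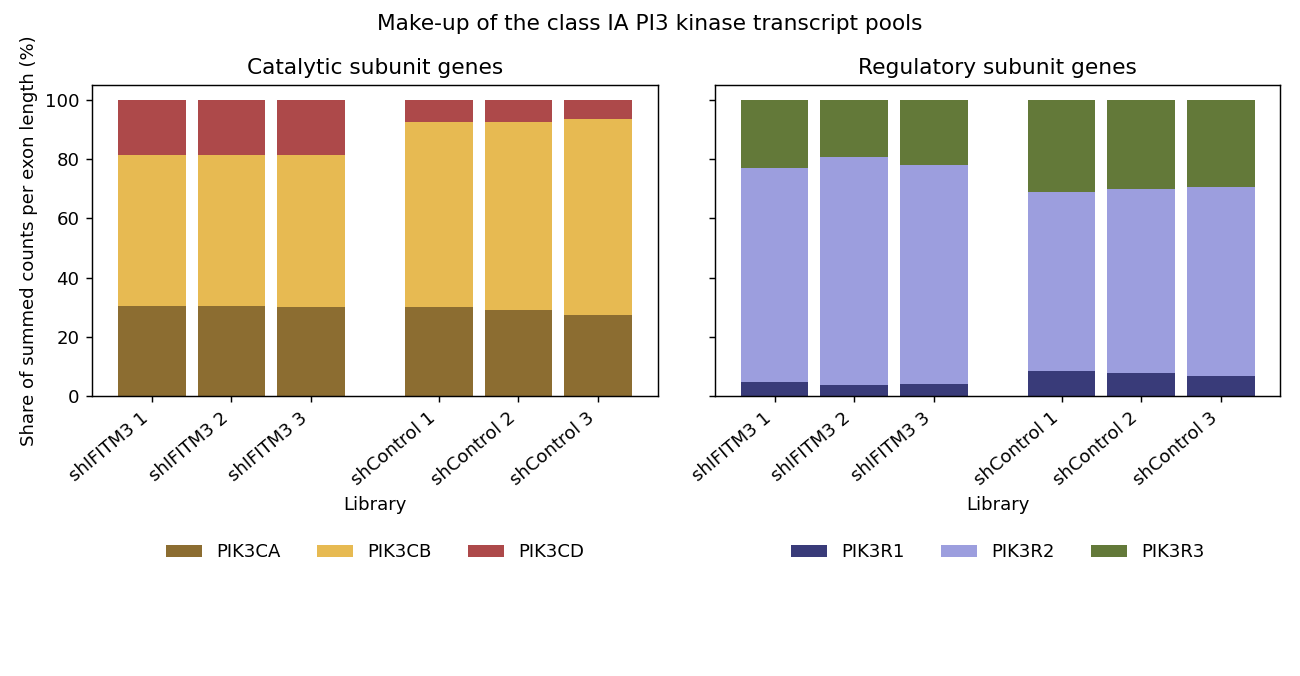
Share of each gene in the summed counts per exon length of the 3 class IA catalytic genes (left) and the 3 class IA regulatory genes (right), one bar per library and each bar adding to 100%. The PIK3CD segment averages 18.6% in shIFITM3 and 7.23% in shControl, and the PIK3R2 segment averages 74.3% in shIFITM3 and 62.1% in shControl.

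Summed per exon length, the 3 catalytic genes reached 24.5 ± 0.131 CPM per kilobase in shIFITM3 and 19.3 ± 0.557 in shControl, a ratio of 1.27. The 3 regulatory genes reached 31.9 ± 1.56 CPM per kilobase in shIFITM3 and 29.2 ± 0.810 in shControl, a ratio of 1.09. The log2 ratio of catalytic to regulatory transcripts was -0.35, -0.46 and -0.32 in shIFITM3 replicates 1, 2 and 3, against -0.52, -0.68 and -0.59 in shControl replicates 1, 2 and 3. All shIFITM3 ratios were higher, by 0.22 on average, although regulatory transcripts exceeded catalytic ones in all 6 libraries on this scale (two-sided exact permutation p = 0.1). Without division by length the sign in shIFITM3 turns, with a mean log2 ratio of 0.20 in shIFITM3 and -0.11 in shControl. Division by protein length gives -0.58 in shIFITM3 and -0.96 in shControl.

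The class II genes went in opposite directions. PIK3C2A, on chromosome 11 at 17086575 to 17207986, acts in clathrin-mediated endocytosis. It was at 146, 150.3 and 154.5 CPM in shIFITM3, against 117, 111 and 114 CPM in shControl, with no overlap. PIK3C2A rose by 0.40 on the log2 scale (SE 0.0394, edgeR adjusted p = 5.31e-09). PIK3C2B, on chromosome 1 at 204422633 to 204494805, has been described as a regulator of signalling from endosomes and lysosomes. It had 23.8, 25.3 and 28.4 CPM in shIFITM3, against 51.0, 49.8 and 48.1 CPM in shControl, and every shIFITM3 library was well under every shControl library. Its log2 fold change was -0.94 (SE 0.0649, edgeR adjusted p = 1.11e-11), which took the level to 0.521 of that in shControl, and 7.77% of all tested genes had a larger absolute change. Together the class II genes summed to 19.1 ± 0.697 CPM per kilobase in shIFITM3 and 17.6 ± 0.412 in shControl (two-sided exact permutation p = 0.1).

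PIK3IP1 encodes a membrane protein that binds the catalytic subunits and inhibits them, and it rose most of the 10. In replicates 1, 2 and 3 it was at 18.6, 17.2 and 19.6 CPM in shIFITM3 (from 409, 396 and 468 counts), against 1.51, 1.48 and 1.72 CPM in shControl (from 32, 114 and 47 counts). The lowest shIFITM3 library lay far above the highest shControl library. The log2 fold change was 3.57 (SE 0.131), or 11.9-fold (edgeR adjusted p = 7.1e-17), and by signed log2 fold change the gene ranked 18 of 14018. PIK3IP1 lies on chromosome 22 at 31281593 to 31292534 and shares 36 exonic bases with PIK3IP1-AS1 on the opposite strand, which had 0 counts in all 3 shIFITM3 libraries and at most 4 in a shControl library.

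Set against the subunits it binds, PIK3IP1 was scarce in shControl and less so in shIFITM3. Per exon length, the log2 ratio of PIK3IP1 to the summed catalytic genes was -2.33, -2.43 and -2.26 in shIFITM3, against -5.64, -5.59 and -5.43 in shControl. The groups stood apart by 3.21 on the log2 scale (two-sided exact permutation p = 0.1, the smallest possible here). PIK3IP1 transcripts therefore stayed fewer than the summed transcripts of the 3 catalytic genes in all 6 libraries. Against PIK3CD alone they overlapped in shIFITM3 per exon length, with means of 4.85 CPM per kilobase of exon for PIK3IP1 and 4.58 for PIK3CD. This near-equality depends on the length used. Per kilobase of coding sequence the shIFITM3 means were 23.4 CPM for PIK3IP1 and 9.05 for PIK3CD. Without division by length PIK3IP1 was the lower, at 18.462 CPM against 28.991 CPM for PIK3CD in shIFITM3.

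PIK3AP1, on chromosome 10 at 96593315 to 96720514, encodes an adaptor that links receptors to PI3 kinase in B cells. It was at 2.64, 2.74 and 2.34 CPM in shIFITM3 (58, 63 and 56 counts), against 2.73, 3.30 and 3.14 CPM in shControl (58, 254 and 86 counts). The ranges touched, and the log2 fold change of -0.27 had a 95% interval of -0.67 to 0.14 (edgeR adjusted p = 0.258). At these counts a fall to 0.628 of the shControl level and no change both lie within the interval.

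Ordered by CPM per kilobase of exon, PIK3R2 led in both groups, with 23.7 ± 1.90 in shIFITM3 and 18.1 ± 0.817 in shControl, followed by PIK3C2A and PIK3CB. Per kilobase of coding sequence PIK3R2 led in shIFITM3 (49.2 CPM per kilobase), while PIK3R3 led in shControl (47.3, against 37.6 for PIK3R2). Per kilobase of exon, PIK3C2A and PIK3CB were separate in shIFITM3 (16.3 and 12.5 CPM per kilobase) and overlapped in shControl (12.4 and 12.3). By exon length PIK3IP1 was the lowest of the 10 in shControl, at 0.412 ± 0.0336 CPM per kilobase. In shIFITM3 it stood in rank 6 at 4.85 ± 0.312 CPM per kilobase and overlapped PIK3CD at 4.58 ± 0.0414. By coding length PIK3IP1 stood in rank 9 in shControl (1.99 CPM per kilobase), above PIK3AP1 (1.27), and in rank 5 in shIFITM3 (23.4). By exon length PIK3C2B went the other way, with rank 8 in shIFITM3 and rank 6 in shControl, where it overlapped PIK3CA. PIK3AP1 was the lowest in shIFITM3, at 0.452 ± 0.0361 CPM per kilobase.

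The genes with the pattern most like that of PIK3IP1 were sought among 10244 protein-coding genes by the root mean square distance of centred log2 CPM over the 6 samples. Among the nearest were CXCR4, a chemokine receptor gene, at a distance of 0.167, and KISS1, the kisspeptin gene, at 0.267. For PIK3CD they were the mevalonate kinase gene MVK (0.0429), the glutaredoxin gene GLRX (0.0536) and the kinase gene SGK1 (0.0569). PIK3CD and MVK had near-equal changes, 1.72 and 1.73 on the log2 scale. Pearson's r with the member was 0.996 to 0.999 for these 5 genes. With 2 groups of 3 such values mostly restate a difference of like size between the groups.

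Genes around the kinase were counted by list, and the lists too were chosen with earlier results of these data known. Of 20 tested genes of receptors and adaptors that recruit PI3 kinase, 13 rose and 2 fell, beside 27.7% and 28.4% of all tested genes, with a median log2 fold change of 0.28. EGFR rose by 0.74 (958 ± 20.7 CPM in shIFITM3 and 575 ± 23.4 CPM in shControl), and the docking protein gene GAB2 by 1.28 (63.3 ± 1.39 CPM in shIFITM3 and 26.1 ± 0.344 CPM in shControl). The falls were the phosphatase gene PTPN11 (-0.18) and the RAS gene NRAS (-0.10, edgeR adjusted p = 0.0445). The NRAS call was lost in 8 of 16 alternatives, among them without shIFITM3 replicate 2 or 3 or shControl replicate 1 (adjusted p = 0.0721, 0.141 and 0.227).

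Of 22 tested effectors and partners of PIP3 signalling 11 rose and 6 fell, again beside 27.7% and 28.4% of all tested genes, with a median of 0.17. SGK1, a kinase related to AKT, was at 94.3, 95.9 and 91.98 CPM in shIFITM3, against 29.9, 26.3 and 25.3 CPM in shControl (log2 fold change 1.80, edgeR adjusted p = 2.88e-18). PLEKHA2, which binds phosphoinositides, fell by 0.93 on the log2 scale, and MTOR fell by 0.44.

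The list of inositol phosphate and phosphoinositide phosphatases also split, with 6 of 16 tested genes higher and 3 lower and a median of 0.02. The share called in either direction, 56.2%, was near the 56.1% of all tested genes. The number called in this list moved with scaling. It was 9 in the main fit, 8 under RLE and total-count scaling and 10 under upper-quartile scaling. INPP4B (0.81) and INPP5K (0.61) rose, while the myotubularin gene MTMR2 (-0.15) fell. MTMR2 was at 104 ± 2.83 CPM in shIFITM3 and 115 ± 3.19 CPM in shControl (edgeR adjusted p = 0.00349). Among other phosphoinositide kinases and PLCG1, 3 of 11 rose and 4 fell (63.6% called, beside the same 56.1%), with a median of 0.05. PIP5K1C, which makes PIP2, rose by 0.997, and PI4K2A by 0.77. PI4KA (-0.39) and the phospholipase gene PLCG1 (-0.30) fell.

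Of the remaining PI3 kinase genes and class III partners, 3 of 6 tested rose and 0 fell, beside 27.7% and 28.4% of all tested genes. The class III kinase gene PIK3C3 rose by 0.67, with 24.2 ± 1.72 CPM in shIFITM3 and 15.2 ± 1.58 CPM in shControl, and its partner gene UVRAG by 0.55. The 3 class IB genes of the list, PIK3CG, PIK3R5 and PIK3R6, had 0 counts in every library. No fall was called in this list by DESeq2 or limma-voom either, and 0 of its genes were lower at an unadjusted p under 0.05 in edgeR.

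**Figure D4:**
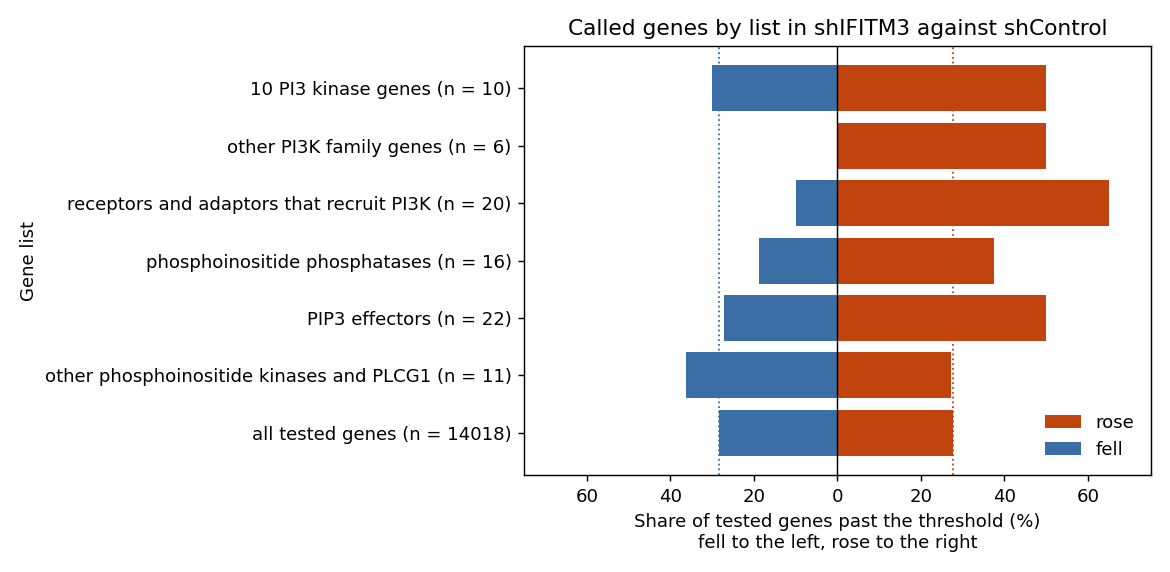
Share of tested genes past the threshold in each list, with genes that rose to the right and genes that fell to the left, and dotted lines at the shares over all tested genes (27.7% rose and 28.4% fell). Receptors and adaptors show 13 of 20 rises, and phosphoinositide kinases and PLCG1 show 4 falls beside 3 rises in 11 genes.

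PIK3CD, PIK3AP1 and PIK3IP1 are used widely in leukocytes, so markers of other cells were read beside them. Of 15 leukocyte markers 3 were abundant enough to be tested, of which 2 rose and 1 fell, where 56.1% of all tested genes were called, and 5 had no count in any library (CD3D, CD79B, MS4A1, LCP2 and SPI1). The pan-leukocyte gene PTPRC was at 0.321 ± 0.182 CPM in shIFITM3 and 0.288 ± 0.105 CPM in shControl. The summed level of the list ranged from 84.3 to 92.1 CPM in shIFITM3 and from 71.4 to 79.6 CPM in shControl. CD68, a lysosomal gene that epithelial lines also express, made up most of it, at 75.9 ± 2.94 CPM in shIFITM3 and 65.8 ± 4.21 CPM in shControl. ITGAM rose, at 7.37 ± 1.57 CPM in shIFITM3 and 3.01 ± 0.241 CPM in shControl. CORO1A, at 3.81 ± 0.553 CPM in shIFITM3 and 4.98 ± 0.309 CPM in shControl, was the fall (edgeR adjusted p = 0.042). The CORO1A call was lost in 8 of 16 alternatives, among them without shIFITM3 replicate 1 or 2 (0.0641 and 0.173) and without shControl replicate 1 or 2 (0.0687 and 0.158).

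Of 10 fibroblast and endothelial markers 4 were tested, of which 3 rose and 1 fell (56.1% of all tested genes called), and DCN and LUM had no count. The COL1A1 rise was among the 3, and its call was lost in 6 of 16 alternatives, among them without shIFITM3 replicate 3 (edgeR adjusted p = 0.28) and without shControl replicate 2 or 3 (0.163 and 0.093). The summed level of the list was 15.8 to 19.96 CPM in shIFITM3 and 12.6 to 14.8 CPM in shControl. COL1A1 was the highest, at 11.5 ± 1.74 CPM in shIFITM3 and 9.56 ± 0.841 CPM in shControl. The endothelial markers split. KDR rose, at 2.69 ± 0.238 CPM in shIFITM3 and 0.348 ± 0.237 CPM in shControl (edgeR adjusted p = 1.84e-07), and CDH5 rose, at 2.04 ± 0.309 CPM in shIFITM3 and 0.666 ± 0.288 CPM in shControl (edgeR adjusted p = 0.000127). PECAM1 fell, at 0.842 ± 0.0905 CPM in shIFITM3 and 2.70 ± 0.360 CPM in shControl (edgeR adjusted p = 1.21e-05). CORO1A, KDR and CDH5 were named after their values were seen. All 7 epithelial markers of the line were abundant, with sums of 8291 to 8507 CPM in shIFITM3 and 9625 to 9760 CPM in shControl. Of these, 2 rose and 3 fell, or 71.4% called, beside 56.1% of all tested genes. KRT8 averaged 2603 ± 34.2 CPM in shIFITM3 and 3677 ± 27.3 CPM in shControl, and KRT7 averaged 2268 ± 35.9 CPM in shIFITM3 and 2321 ± 50.5 CPM in shControl (edgeR adjusted p = 0.24). The part of these markers in the values of the 10 genes was not tested.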

How the data were processed

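Per the labels' protocols, column-purified total RNA went into a stranded Illumina mRNA library kit. The submitters' processing notes name build hg38 and the programs HISAT2 2.2.1, Subread 2.0.6 with featureCounts, SAMtools 1.20, fastp 0.23.4 and FastQC 0.12.1. Neither the annotation nor the strand option used is stated there, so overlapping genes on opposite strands may not be told apart. The authors deposited 1 table of raw counts per gene for the 6 samples, mapped by the column names in the labels. Of the values from 1 to 20, 76.5% were even, so both reads of a pair may often be counted.

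Tests used edgeR 4.0.16 in R 4.3.3 (filterByExpr, TMM, glmQLFit and glmQLFTest on group, two-sided). The method was first run on simulated data in which far fewer genes changed than were called here, so its scaling under so broad a change was not tested. Intervals use SE taken as the absolute log2 fold change over the square root of F. Lengths, overlaps and GC content came from GENCODE 29, positions and promoters from RefSeq GRCh38.p14. Alternatives were other scalings and filters, DESeq2 1.42.0, limma-voom (limma 3.58.1), a replicate block, thinning of shControl replicate 2, a test against 1.5-fold, leaving out each sample and a GC and length correction, the last chosen after seeing the data. Genes outside the 10 were named by p within each list (up to 2 rises and 2 falls), by level for markers, or by distance of pattern. Some genes that this rule names are not reported here. The 10 genes and the lists were chosen with earlier results of these data known.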

Additional observations from a re-analysis of the deposited data

How the results depend on the processing

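The 8 calls among the 10 genes, 5 rises and 3 falls, were made in the same numbers with DESeq2 and limma-voom, under total-count, RLE and upper-quartile scaling, without a filter and with one of 50 counts in 3 samples, and with the thinned library, the GC and length correction and without each of the 6 samples in turn. Over all genes, the number called under these settings ran from 7124 without shControl replicate 2 to 8082 without a filter. After the GC and length correction 3064 genes rose and 4629 fell, against 3885 and 3985 in the main fit. The near-equal shares of rises and falls over all genes therefore depend on that setting. GC content and length were available for 13261 of the 14018 tested genes. In the test against a 1.5-fold change 3 of the 10 passed, 2 higher (PIK3IP1 and PIK3CD) and 1 lower (PIK3C2B). Of all 14018 tested genes 1115 passed that test, 807 higher and 308 lower. The log2 fold change of PIK3CB ran from -0.0058 without shControl replicate 2 to 0.053 without shControl replicate 3 and was -0.0088 after the GC and length correction, and the cause was not tested. The difference in PIK3CD share was 9.07 percentage points both without division by length and with division by protein length, against 11.4 with exon length. The log2 ratio of catalytic to regulatory transcripts differed by 0.31 with no length and by 0.38 with protein length, against 0.22. These shifts come from the lengths that weight the genes. The replicate block also gave 8 calls and changed none of the 10, and samples that share a number did not deviate together (correlations of 0.0157, 0.033 and 0.00634 for numbers 1, 2 and 3), although 2 of the 3 shIFITM3 samples correlated best with the shControl sample of their own number. With 3 samples a group the exact tests cannot go below 0.1, and depth limits PIK3AP1 most.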
